A study of Mus musculus with 11 samples.

Results

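Nppb, Rcan1 and Fhl1 are 3 genes used as markers of cardiac hypertrophy, and their spots were taken from the arrays by gene symbol. They are 3 of the 8106 named genes tested among 12097 features, and each had 1 spot with a value on all 11 arrays. The arrays compared ventricular RNA (right and left ventricles and septum) of 12 male C57/BL6 mice of the TG1306/1R line, aged 60 weeks, in which a transgene makes the heart overexpress angiotensinogen. The WT group held 4 littermates without the transgene (-/-). The Hyp group held 4 heterozygous carriers with concentric hypertrophy and the Dil group 4 heterozygous carriers with dilated hearts. As background from knowledge of the line, the transgene is a rat angiotensinogen gene driven in cardiomyocytes by the alpha-myosin heavy chain promoter, so the carriers model an excess of angiotensin made in the heart. Per the labels, carriers were put into the Hyp or Dil group by genotype, chamber morphology, cardiac weight index and the expression of hypertrophic markers. Which markers were used is not given in the sources used here, so a difference of Nppb, Rcan1 or Fhl1 between the groups may partly restate how the mice were chosen.

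Stretched or overloaded ventricular muscle reopens a set of genes used before birth. Nppb encodes B-type natriuretic peptide, which heart muscle releases under wall stress and which acts through a receptor that makes cyclic GMP, promoting salt loss and vessel relaxation. Rcan1 encodes a regulator that binds the calcium-activated phosphatase calcineurin, and its shorter transcript is itself a target of the NFAT transcription factors that calcineurin frees to enter the nucleus. Fhl1 encodes a protein of LIM domains that sits on the spring region of titin in the sarcomere, where it takes part in stretch signalling through the MAP kinases.

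Each array carried the labelled cDNA of 2 mice with the same number, called a set here (WT1, Hyp1 and Dil1 form set 1). Every value is a log2 ratio between 2 mice, so it says how a gene differed between hearts and nothing of its absolute level, and the tissue could not be checked against the levels of its defining markers. The sign rests on reading each ratio as Cy5 over Cy3, which no source used here states. That direction is likely, because Agt, the angiotensinogen gene itself, then lies higher in carriers, at 2.09 ± 0.40 SE in Hyp and 2.15 ± 0.40 in Dil over WT (adjusted p 0.871 and 0.0311). Agt had the same sign on 2 of 3 direct arrays in Hyp minus WT and on 3 of 3 in Dil minus WT, with a dye term of 0.46 and a residual spread above that of 99.8% of features, so this basis is itself noisy. The sign of Nppb depends on the same reading and is no separate check of it. With the opposite direction every sign would turn, and if the logarithms are natural and not base 2 the folds are too small (12.6 in place of 5.79 for Nppb in Dil over WT). The column of the WT1 and Hyp1 array followed another spot order and was realigned by print block, which moved the Nppb value on it from 0.43 to 1.26, the Rcan1 value from -0.01 to 0.48 and the Fhl1 value from -0.15 to -0.03. The other 2 arrays of set 1 give sums of 0.88, 0.78 and 0.22 for the same difference. The array of WT2 and Dil2 was not analysed here, so the Dil2 over WT2 value is the sum of 2 other arrays.

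Nppb lay highest in the dilated hearts, at 5.79-fold over WT (log2 2.53 ± 0.32 SE, 95% interval 1.83 to 3.23), the largest positive fitted difference of all features tested. On the single arrays that set a Dil mouse against a WT mouse, the log2 ratio was 2.29 in set 1, 2.80 in set 3 and 2.83 in set 4. In set 2 the Dil mouse came out at 1.42 over its WT mouse, the lowest of the 4 sets. All 4 Dil mice thus lay above their WT mouse, by 2.68-fold at the least (Dil2) and 8.09-fold at the most (Dil4). The fitted difference passed the test over all features in limma (adjusted p = 0.00866).

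In the hypertrophic hearts Nppb lay 2.04-fold over WT (log2 1.02 ± 0.30 SE, 95% interval 0.36 to 1.69), the second highest fitted value of all features after Agt. The direct arrays gave 1.26, 1.28 and 1.21 in sets 1, 2 and 3 and 0.30 in set 4. Hyp1, Hyp2 and Hyp3 lay close together, while Hyp4 was nearer its WT mouse, at 0.11 when all 3 arrays of set 4 were combined. The difference did not pass over all features (limma adjusted p = 0.900). Dil over Hyp was 1.51 ± 0.30 SE and did not pass either (adjusted p = 0.0845). Its single arrays spread widely, at 1.41 in set 1, 0.14 in set 2, 1.32 in set 3 and 3.10 in set 4. Set 2 had the narrowest gap, from which the Dil2 over WT2 value was in part computed, and set 4 the widest, with a low Hyp4. The residual spread of Nppb across arrays was larger than that of 99.4% of features.

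The proximal promoter of Nppb is shown because the elements through which heart muscle is known to switch on this gene lie in it. The gene spans chr4:147985786-147987205 in GRCm38.p6 (1420 bases, plus strand), and the printed stretch, chr4:147985650-147985899 from RefSeq, holds the 250 bases before a start site at 147985900, which itself lies inside the annotated gene, so RefSeq has a longer transcript too. Capitals mark, from left to right, the MCAT element CATTCC on the opposite strand (first base 105 bases before the start), the GATA elements TGATAA (95) and AGATAA (84), and a TATA box (TATAAA, 31).
Nppb promoter: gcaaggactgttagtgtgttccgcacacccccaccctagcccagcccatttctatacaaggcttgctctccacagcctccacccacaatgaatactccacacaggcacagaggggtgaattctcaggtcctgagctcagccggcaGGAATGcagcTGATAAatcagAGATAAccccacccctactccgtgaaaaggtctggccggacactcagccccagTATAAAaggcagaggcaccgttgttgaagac
None of the matches overlaps another. Over the 32851 windows of the RefSeq table, of 300 bases each, CATTCC was found on either strand in 14.7%, TGATAA in 9.05%, AGATAA in 11.2% and TATAAA in 13.6%, and all 4 together in 24 windows (0.0731%), a combination chosen after the Nppb window had been read. GGAAA, the core of NFAT sites, had 0 matches in this window. These are letter matches and were not tested for function.

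**Figure D1:**
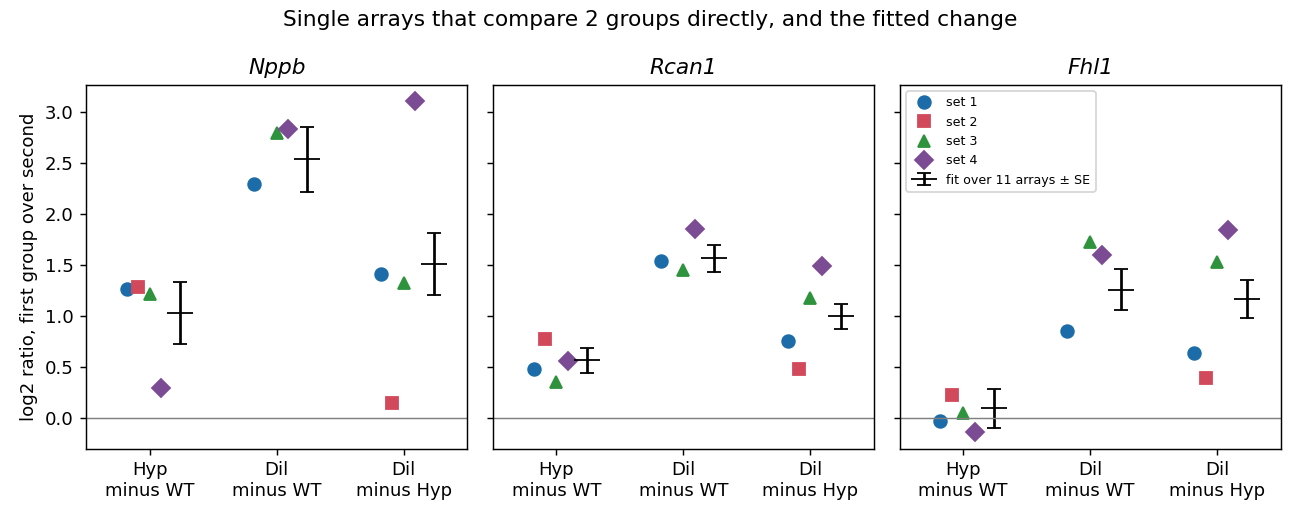
Log2 ratio of Nppb, Rcan1 and Fhl1 on each array that compares 2 groups directly (points, marked by set), beside the difference fitted over all 11 arrays with its SE (black bars). Nppb and Rcan1 lie above 0 on every array shown, Fhl1 straddles 0 in Hyp minus WT, and set 4 stands apart for Nppb at 0.30 in Hyp minus WT and 3.10 in Dil minus Hyp.

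Rcan1 rose 2.95-fold in the dilated hearts over WT (log2 1.56 ± 0.13 SE, 95% interval 1.28 to 1.84), with the smallest p of all features (limma adjusted p = 0.00102). The direct arrays gave 1.54 in set 1, 1.44 in set 3 and 1.85 in set 4, and the Dil2 mouse lay at 1.25 over WT2. The 4 Dil mice lay close together, with an SD over sets of 0.28 against 0.69 for Nppb. In the hypertrophic hearts Rcan1 lay at 1.48-fold over WT (log2 0.56 ± 0.12 SE, 95% interval 0.30 to 0.83). Its 4 direct arrays read 0.48, 0.77, 0.36 and 0.56, all above 0, but the difference did not pass over all features (adjusted p = 0.871). No feature had a smaller adjusted p in Hyp minus WT, but others, Agt among them, had the same one. By unadjusted p Rcan1 ranked 8 and Agt 4 in that comparison.

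Rcan1 was also higher in the dilated than in the hypertrophic hearts, by 2.00-fold (log2 1.00 ± 0.12 SE, limma adjusted p = 0.0236). The arrays of Dil against Hyp mice read 0.75 in set 1, 0.47 in set 2, 1.18 in set 3 and 1.49 in set 4. The lowest Dil mouse over its WT mouse (1.25) stood above the highest Hyp mouse (0.76). The 4 Dil and the 4 Hyp values thus did not overlap, as for 0.909% of all features (110 of 12097), Nppb and Fhl1 among them.

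For Rcan1, 2 start sites have a window in RefSeq, and both are shown because they differ in NFAT core letters and the spot does not say which transcript it reads. The gene spans chr16:92391951-92466169 in GRCm38.p6 on the minus strand. The outer window, chr16:92466170-92466419, ends at the annotated start of the gene, and the inner window, chr16:92400079-92400328, lies inside the gene before a start site at 92400078. Each holds the 250 bases before its start, read 5′ to 3′ on the gene's strand. Capitals mark GGAAA or its reverse complement and, in the inner window, the AP-1 element TGANTCA.
Rcan1 outer window: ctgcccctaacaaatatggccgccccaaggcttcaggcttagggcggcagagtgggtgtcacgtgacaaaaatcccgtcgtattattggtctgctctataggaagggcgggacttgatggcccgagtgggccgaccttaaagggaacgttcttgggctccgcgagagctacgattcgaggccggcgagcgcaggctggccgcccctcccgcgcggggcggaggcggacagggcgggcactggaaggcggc
Rcan1 inner window: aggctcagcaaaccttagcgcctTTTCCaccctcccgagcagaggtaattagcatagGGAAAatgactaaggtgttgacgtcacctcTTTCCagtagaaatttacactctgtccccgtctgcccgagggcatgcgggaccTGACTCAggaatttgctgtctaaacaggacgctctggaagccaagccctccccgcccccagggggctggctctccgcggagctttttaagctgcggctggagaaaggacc
The outer window held 0 matches to any of the letters searched. The inner window held GGAAA 3 times, at 227 and 163 bases before the start on the opposite strand and at 193 on the gene's strand, and TGANTCA at 110. GGAAA occurs in 61.3% of all windows and TGANTCA in 7.81%. At least 3 GGAAA, a count equal to that of the inner window and not planned beforehand, occur in 9.42%. Which of the transcripts changed was not tested.

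Fhl1 rose 2.39-fold in the dilated hearts over WT (log2 1.26 ± 0.20 SE, 95% interval 0.82 to 1.69, limma adjusted p = 0.0143) and 2.24-fold over the hypertrophic hearts (log2 1.16 ± 0.19 SE, 95% interval 0.75 to 1.58, adjusted p = 0.0397). Against WT the direct arrays read 0.85 in set 1, 1.72 in set 3 and 1.59 in set 4, and Dil2 lay at 0.61 over WT2. Against Hyp they read 0.63, 0.39, 1.53 and 1.84 in sets 1 to 4. Sets 3 and 4 were high and sets 1 and 2 low in both comparisons, with no value at or below 0.

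In the hypertrophic hearts Fhl1 was close to WT, at 1.07-fold (log2 0.09 ± 0.19 SE, 95% interval -0.32 to 0.50, adjusted p = 0.999). The 4 arrays read -0.03, 0.22, 0.05 and -0.14, on both sides of 0. The interval still allows a change of up to 0.50 in log2, so a small difference cannot be told from none here. Of all features, 84.1% had a lower fitted value in this comparison, against 99.98% for Nppb. Fhl1 spans chrX:56731209-56793346 in GRCm38.p6, and its 2 RefSeq windows, before start sites at 56779683 and 56786527, lie inside the gene. The first held TATAAA at 156 bases before its start and TGATAA at 29 bases after it, and the second held GGAAA at 92 bases before its start, all on the opposite strand.

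Set side by side, all 3 genes passed as higher in Dil minus WT, where 1.00% of all features did (121 of 12097) and 1.15% passed as lower (139). In Dil minus Hyp, Rcan1 and Fhl1 passed as higher, where 0.141% of features did (17 of 12097) and 0.0248% passed as lower (3). In Hyp minus WT none of the 3 passed, and 0.00% of features did (0 of 12097 in limma, with 533 at an unadjusted p under 0.05 and a smallest adjusted p of 0.871). The median of all features was 0.00 in each of the 3 comparisons. Nppb and Rcan1 lay above 0 in all 4 sets of Hyp minus WT, as 6.05% of features did. All 3 genes did so in Dil minus WT (11.1% of features) and in Dil minus Hyp (7.81%). The fitted order of the groups was WT, Hyp, Dil for each gene. Nppb and Rcan1 kept that order in all 4 sets, as 0.521% of features did, and Fhl1 kept it in 3 of 4, since Hyp4 lay at -0.18 against WT4. The Dil and Hyp values over WT did not overlap for any of the 3 genes, which 0.909% of features share. The 3 comparisons share their mice, so their values are not independent of each other. The 3 genes were chosen with earlier results of these data known, and carriers were grouped partly by hypertrophic markers. Their standing against these shares is therefore a description and no test.

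**Figure D2:**
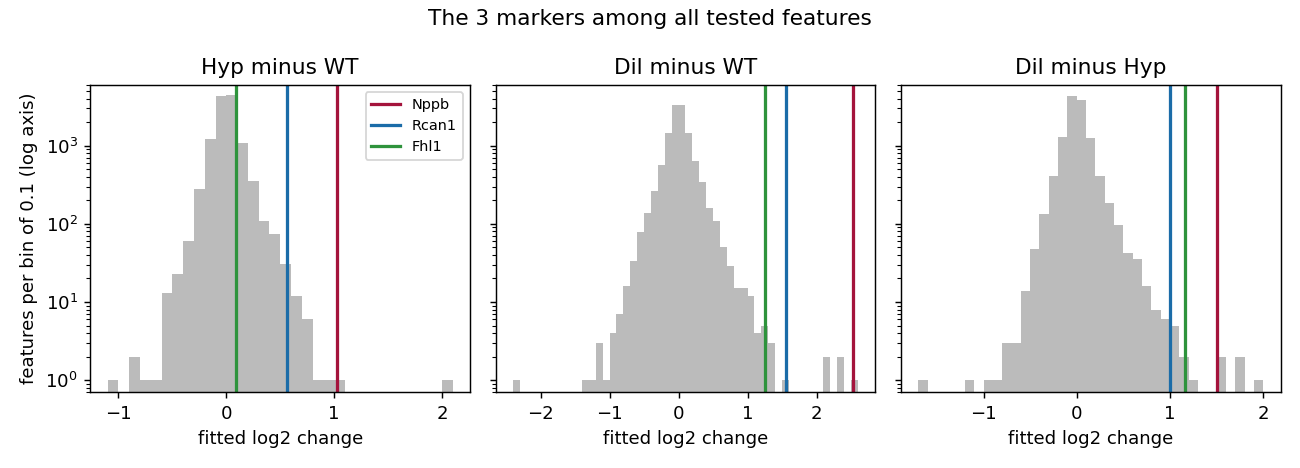
Number of features (log axis) by fitted log2 change in bins of 0.1, for the 3 comparisons, with a line at each gene. Nppb is at the far right of Dil minus WT at 2.53. Rcan1 and Fhl1 lie there at 1.56 and 1.26, ranked 6 and 13 from the highest of all features. Fhl1 sits within the bulk of Hyp minus WT at 0.09.

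These calls rest on few mice. With 1 value per set and contrast, which keeps the mice of a set as a block, Rcan1 in Dil minus WT still passed (adjusted p = 0.0298, where 0.0331% of features passed as higher), while Nppb (0.0591) and Fhl1 (0.0944) no longer did, and in Dil minus Hyp neither Rcan1 (0.367) nor Fhl1 (0.401) did. In Dil minus Hyp the block left 0.00% of features passing as higher. Without set 3 none of the 3 genes passed in either comparison, with an adjusted p in Dil minus WT of 0.216 for Nppb, 0.177 for Rcan1 and 0.238 for Fhl1, and in Dil minus Hyp of 0.452 for Rcan1 and 0.775 for Fhl1. No feature at all passed without set 3, 0 of 12097 in either comparison, so this loss is not particular to the 3 genes. Without set 4 Fhl1 was also lost in Dil minus WT (0.162), and without set 1 or set 4 both genes were lost in Dil minus Hyp (Rcan1 0.0748 and 0.205, Fhl1 0.0864 and 0.360). Of all 12097 features, 12 passed in Dil minus WT without set 4. In Dil minus Hyp 0 passed without set 1 and 0 without set 4. Without set 2 Nppb passed in Dil minus Hyp, at 1.90 (adjusted p = 0.0410), as 15 of 12097 features did. The arrays of WT3 with Dil3 and of Dil4 with WT4 each ended the Fhl1 call in Dil minus WT when left out (adjusted p 0.0511 and 0.0802). Those fits left 34 and 30 of 12097 features passing there, against 260 in the main fit. In Dil minus Hyp the Rcan1 call ended without the array of Hyp2 and WT2 (0.0506), Dil3 and Hyp3 (0.105) or WT4 and Hyp4 (0.0606). Only 1 of 12097 features passed in each of those fits. The Fhl1 call in Dil minus Hyp ended without any of 9 arrays (0.0676 to 0.194) and held only without the array of Dil1 and Hyp1 or that of Hyp2 and Dil2. The 9 fits that ended it left from 1 to 13 of 12097 features passing, against 20 in the main fit. Leaving out the array of Hyp2 and Dil2 made Nppb pass at 1.83 (0.0204), as 38 of 12097 features did. Every fitted difference that passed kept its sign under each of these.

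The arrays of a set close a triangle, so the way from WT to Hyp to Dil can be set against the direct way from WT to Dil as a measure of error. For Nppb the 2 ways differed by 0.38 in set 1, -0.27 in set 3 and 0.57 in set 4. For Rcan1 the gaps were -0.30, 0.09 and 0.20, and for Fhl1 -0.25, -0.14 and 0.11. The gap over all features had a scaled median absolute deviation of 0.19 in set 1, 0.43 in set 3 and 0.43 in set 4. Each gap of the 3 genes was smaller than the Dil over WT value of its set. Against the smaller Hyp over WT values, the gap was the larger for Nppb in set 4 (0.11) and for Fhl1 in set 1 (0.08) and set 3 (0.10). The WT with Dil arrays of sets 3 and 4 also had a wider spread over all spots, at 0.34 and 0.35, than that of set 1 at 0.17, and the share of this in the high Fhl1 values of sets 3 and 4 was not tested. With all arrays scaled to the same spread, Dil minus WT was 2.25 for Nppb, 1.35 for Rcan1 and 0.95 for Fhl1, and each still passed (adjusted p 0.0325, 0.0114 and 0.0114), while Rcan1 in Dil minus Hyp, at 0.78, did not (0.103).

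The cardiac weight index, the heart's weight over the body's, was part of how the groups were made and is given as a description. It was 4.2, 4.5, 4.5 and 4.9 mg/g in WT1 to WT4. In Hyp1 to Hyp4 it was 5.8, 5.4, 5.45 (the mean of the 2 figures the labels give for Hyp3) and 5.5 mg/g. In Dil1 to Dil4 it was 8.1, 7.8, 7.8 and 9.2 mg/g. The group means were 4.53 ± 0.287 (SD, n = 4), 5.54 ± 0.180 and 8.22 ± 0.665 mg/g. Dil4 had the highest index in mg/g and also the highest Nppb (3.02) and Rcan1 (1.92) over its WT mouse, while Dil3, with 7.8 mg/g, had the highest Fhl1 (1.67 against 1.63 in Dil4). Dil2 had the same index as Dil3 but the lowest values of the Dil group for all 3 genes, 1.42 against 2.71 for Nppb, 1.25 against 1.47 for Rcan1 and 0.61 against 1.67 for Fhl1. Hyp4 had an index of 5.5 mg/g, within the range of its group, and the lowest Nppb and Fhl1 of any carrier, at 0.11 and -0.18, while its Rcan1 of 0.50 lay between those of Hyp1 (0.60) and Hyp3 (0.33). Set over the WT mouse of the same set, as the gene values are, the index of Hyp4 was the lowest of the carriers, at 1.12 against 1.20 to 1.38 in the other Hyp mice. On that scale Dil1 (1.93) stood above Dil4 (1.88), and Dil2 and Dil3 were again equal (1.73). The order of the Dil mice by index was thus not that of Nppb or Fhl1 on either scale. For Rcan1 it differed over the WT mouse, where Dil4 (1.92) stood above Dil1 (1.45). In mg/g it cannot be told apart from the Rcan1 order. Dil3 (1.47) and Dil1 were nearly equal, and their direct arrays had Dil1 higher (1.54 against 1.44). With groups of 4 that do not overlap in the index, no correlation was computed.

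**Figure D3:**
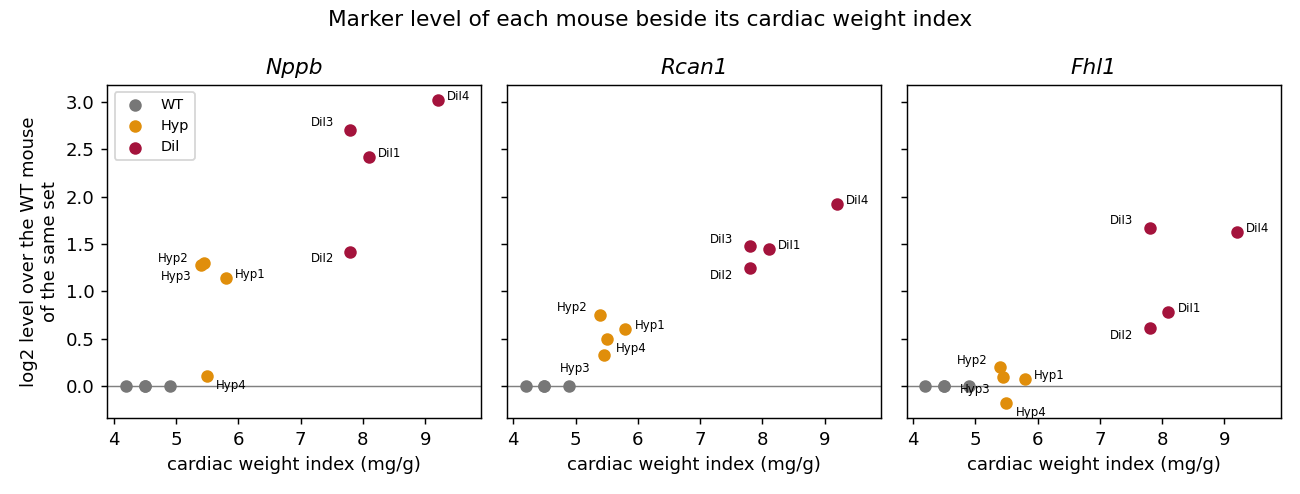
Log2 level of each gene over the WT mouse of the same set (vertical axis; WT is 0 by construction) against cardiac weight index in mg/g for each of the 12 mice. The Dil mice lie to the right and above the Hyp mice for each gene, with Dil2 lowest among them, and Hyp4 lies near the WT line for Nppb.

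The genes whose ratios over the 11 arrays were most like each marker were found by cosine similarity among 6831 genes, as a description. For Nppb the nearest gene was Rcan1 (0.97), followed by Arfgap3 (0.95), Panx1 (0.95), Kif5b (0.95) and Rras2 (0.94). Rcan1 in turn had Nppb (0.97), Kif5b (0.97), Panx1 (0.96), Aopep (0.96) and Ppp1r15a (0.96). Kif5b, a motor protein that carries cargo along microtubules, lay at 0.85 ± 0.09 SE in Dil minus WT, and Panx1, a channel of the cell membrane, at 0.66 ± 0.11. Fhl1 had another set of neighbours, Uck2 (0.99), Plp2 (0.98), Anxa3 (0.98), Sorbs2 (0.98) and Rtn4 (0.98), none of which was among the nearest 5 of the other 2 markers. In the Fhl1 ranking Rcan1 stood 51st (0.92) and Nppb 74th (0.91), and Fhl1 stood 26th in the Nppb ranking and 19th in the Rcan1 ranking. These neighbours of Fhl1 lay between 0.05 and 0.10 in Hyp minus WT, as Fhl1 did (0.09), and between 0.53 and 0.90 in Dil minus WT. They were picked by likeness over the same arrays, so a shared pattern is built into the choice. Over all genes the median similarity was 0.02 for Nppb, 0.03 for Rcan1 and 0.02 for Fhl1, and the highest 5% of genes exceeded 0.73, 0.73 and 0.77. The arrays of a set share mice, so they are not 11 independent points.

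Of the natriuretic peptide system, 11 of 20 listed genes were measured. Nppb passed in Dil minus WT, as 1.00% of all features did as higher, and no other member did. Of the enzymes that cut the natriuretic peptide precursors, Corin lay at 0.06 and Furin at 0.09 in Dil minus WT. Npr3, the receptor that clears the peptides, lay at 0.43 ± 0.12 SE (adjusted p = 0.112), and Gucy1a1, a subunit of the nitric oxide-sensitive guanylate cyclase, at -0.36 ± 0.11 (0.125). Mme, neprilysin, which degrades the peptides, lay at -0.11 ± 0.06 (0.372). The median of the 11 genes was 0.02, with 6 above 0, against a median of 0.00 and 51.1% above 0 over all features. Nppa, the atrial peptide gene usually read beside Nppb, was not analysed here.

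Of the calcineurin and NFAT genes, 25 of 41 were measured, and Rcan1 alone passed as higher in Dil minus WT. Over all features 1.00% passed as higher and 1.15% as lower. The subunits of calcineurin itself lay near 0, with the catalytic Ppp3ca at 0.02 and Ppp3cb at -0.11 and the regulatory Ppp3r1 at -0.19, and none passed. Rcan3, a relative of Rcan1, lay at 0.06 ± 0.06 SE. Nfatc4, an NFAT factor under calcineurin, fell by 0.57 ± 0.11 SE (adjusted p = 0.0311), while Nfatc1, Nfatc2, Nfatc3 and Nfat5 lay between 0.01 and 0.21 and did not pass. Cib1, a calcium-binding protein that anchors calcineurin at the membrane, lay at 0.26 ± 0.09 (0.182) and Gata4, a partner of NFAT in heart muscle, at 0.24 ± 0.11 (0.325). The median of the 25 genes was 0.03, with 16 above 0, against 51.1% of all features. The Nfatc4 call did not hold with the set as a block (adjusted p = 0.0964).

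Of the LIM-domain genes, 23 of 35 were measured, and in Dil minus WT 3 rose, Fhl1 among them, and 1 fell. Of all features, 1.00% passed as higher and 1.15% as lower. Beside Fhl1 the list genes that rose were Limd1, at 0.47 ± 0.10 SE (adjusted p = 0.0416), and Pdlim1, at 0.32 ± 0.07 (0.0412), a PDZ and LIM protein of actin filaments. Crip2, a small cysteine-rich LIM protein, fell by 0.45 ± 0.10 (0.0412). Fhl2, a relative of Fhl1 that also binds titin, lay at -0.06 ± 0.10 in Dil minus WT and -0.02 in Hyp minus WT. The difference between these paralogs was not tested. Pdlim5 (0.70 ± 0.16, adjusted p = 0.0511) and Pdlim2 (0.38 ± 0.09, 0.0562) fell just short of the threshold, and Crip3 lay at -0.24 ± 0.07 (0.112). The median of the 23 genes was 0.11 in Dil minus WT, with 18 above 0 (51.1% of all features were), and 0.03 in Hyp minus WT. With the set as a block Limd1 (0.0944), Pdlim1 (0.132) and Crip2 (0.0965) did not pass.

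Among titin and stretch signalling genes, 15 of 30 were measured, and 4 rose in Dil minus WT with none lower. The shares over all features were 1.00% higher and 1.15% lower. The list genes that rose were Fhl1, Sorbs2 at 0.72 ± 0.12 SE (adjusted p = 0.0154), an adaptor of the Z-disc and intercalated disc, Tln1 at 0.51 ± 0.08 (0.0169), which ties integrins to actin, and Sqstm1 at 0.58 ± 0.11 (0.0254), a carrier of cargo to autophagy that also binds at titin's kinase. Sorbs2 (0.67 ± 0.11, adjusted p = 0.0475) and Tln1 (0.49 ± 0.08, 0.0397) rose in Dil minus Hyp as well, as Fhl1 did, where 0.141% of all features passed as higher. With the set as a block neither Sorbs2 nor Tln1 passed there (0.397 and 0.367). Bag3, a co-chaperone of the Z-disc, lay at 0.51 ± 0.14 (adjusted p = 0.101), the integrin Itgb1 at 0.28 ± 0.10 (0.208) and vinculin, Vcl, at 0.23 ± 0.10 (0.260). Titin's own gene, Ttn, lay at 0.08 ± 0.07 and the kinases Map2k1 and Map2k2 at 0.17 and 0.02, and none of these passed. The median of the 15 genes was 0.19 in Dil minus WT, with 13 above 0 (against 51.1% of all features), and 0.04 in Hyp minus WT. With the set as a block Sorbs2 (0.0902), Tln1 (0.0995) and Sqstm1 (0.124) did not pass in Dil minus WT.

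Of the wider fetal and hypertrophic programme, 15 of 36 genes were measured, and 4 rose and 1 fell in Dil minus WT. All features gave 1.00% higher and 1.15% lower, and the 3 markers are themselves members of this list. The 3 markers were joined by Ccn1, a matricellular protein, at 0.40 ± 0.09 SE (adjusted p = 0.0416), and Kcnd2, a subunit of the transient outward potassium channel, fell by 0.62 ± 0.12 (0.0311). Neither call held with the set as a block (0.201 and 0.110). Timp1, an inhibitor of matrix proteases, had a larger value than Fhl1, 1.32 ± 0.43, but did not pass (0.141). Tnnt1, slow skeletal troponin T, lay at -0.61 ± 0.15 (0.0671), and Atp2a2, which pumps calcium back into its store, at -0.47 ± 0.16 (0.169). The early response genes Egr1 (0.30), Fos (0.24), Jun (0.16), Myc (0.15) and Atf3 (0.38) did not pass. The median of the list was 0.30 with 11 of 15 above 0, against 51.1% of all features. Acta1, Myh6 and Myh7 were not analysed here.

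**Figure D4:**
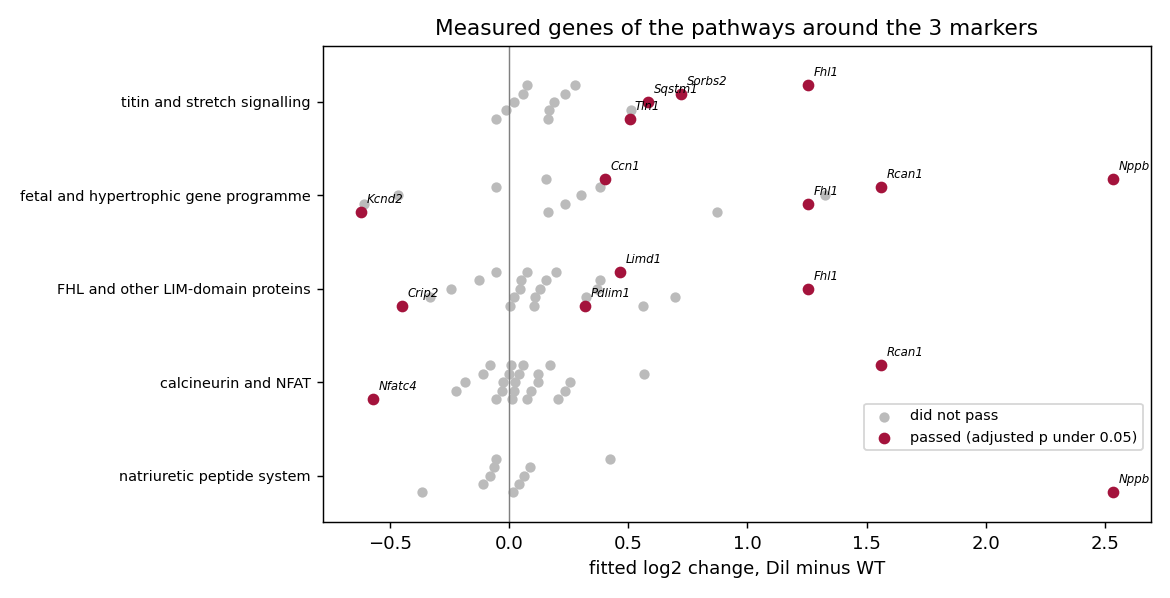
Fitted log2 change in Dil minus WT of each measured gene of 5 lists, with genes that passed (adjusted p under 0.05) in dark red and named. In the natriuretic and calcineurin lists Nppb and Rcan1 stand alone on the right, while Fhl1 has Sorbs2, Sqstm1 and Tln1 beside it in the titin list.

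Because whole ventricle was used, a change in the mix of cells and a change per cell cannot be told apart. In Dil minus WT the median of 9 measured fibroblast markers was 0.22 (7 above 0, Fbln2 passing at 1.00 ± 0.23 SE, adjusted p = 0.0486, and 0.196 with the set as a block), and by set it was -0.10, 0.04, 0.54 and 0.45. The list was split. Fn1 (0.82), Col3a1 (0.62), Col1a2 (0.56), Col1a1 (0.22) and Dcn (0.19) lay above 0, but Tcf21 (0.04), Lum (-0.05) and Pdgfra (-0.20) lay near or below it, none passing. Of all features 51.1% lay above 0 and 1.00% passed as higher. Fhl1 was likewise higher in sets 3 and 4 (1.67 and 1.63) than in sets 1 and 2 (0.78 and 0.61), and the part of fibroblast RNA in its values was not tested. In Dil minus Hyp, where Rcan1 and Fhl1 also passed, the fibroblast median was 0.24 (7 of 9 above 0, none passing) and by set 0.06, -0.20, 0.30 and 0.63. The set values there were 1.28, 0.15, 1.41 and 2.91 for Nppb, 0.84, 0.49, 1.15 and 1.42 for Rcan1 and 0.70, 0.41, 1.57 and 1.81 for Fhl1. The order of sets was the same for all 4 series, the share of features with that order was not counted, and the part of the markers in this was not tested. In Dil minus WT the order was not shared, since the fibroblast median was lowest in set 1 and all 3 genes in set 2. In Hyp minus WT the fibroblast median was 0.00. Of 14 cardiomyocyte markers, the 4 that were measured had a median of -0.07 in Dil minus WT, the 3 of smooth muscle -0.42 and the 3 of macrophages and leukocytes 0.30, and none of these genes passed. The 5 endothelial and 4 adipocyte markers had medians of -0.06 and -0.01, and Actn3 of skeletal muscle and Alas2 of red cells lay at 0.03 and 0.35, with none passing. In Dil minus Hyp Alas2 lay at 0.59 ± 0.12 SE (adjusted p = 0.0845) and above 0 in each set. No marker of atrial muscle was measured, so the part of atrial tissue in the Nppb values was not tested.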

How the data were processed

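Ventricular RNA of 12 mice was hybridised to 11 cDNA arrays with 2 colours, 2 mice per array, each mouse labelled with Cy3 or Cy5 per the labels. The authors deposited 1 log2 ratio per spot and array (base 2 assumed; values from -3.64 to 5.12, column medians from -0.01 to 0.01). The sources used here give no scanner, background correction or normalization, and spot brightness was not used, so the number of arrays limits the precision. Gene symbols came from the platform annotation, with gene IDs updated through RefSeq (GRCm38.p6), and promoter windows came from the RefSeq table of the same build.

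The column of WT1 and Hyp1 was matched to what the remaining arrays of set 1 imply. A position group was moved by 8 print blocks where this raised its correlation with the implied ratio by more than 0.2. That held for 40 of 46 groups (11520 spots, with 3840 left without a value on it). Within the moved groups all 24 blocks that could move fitted best 8 places further on. The correlation over named spots rose from 0.492 to 0.810. The groups were chosen by the same correlation, so neither figure is an independent check of the realignment.

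Spots of a gene were averaged, and features with a value on at least 9 arrays were kept. The model for each feature, solved by generalised least squares, held both carrier groups against WT and a dye effect, with mouse as a random effect (variance ratio 0.303 for all features). Variances were moderated with limma 3.58.1 in R 4.3.3, with Benjamini-Hochberg adjustment over 12097 features and a threshold of 0.05. The 8 residual degrees of freedom count arrays, not mice, and can make p-values too small. Pairing: same-numbered mice share arrays by design, so 1 dye-corrected value per set and contrast was also tested with limma as a replicate block. The other alternatives were each set left out, the column of WT1 and Hyp1 as deposited or left out, no dye term, direct arrays only, arrays scaled to the same spread, ordinary least squares, robust moderation, spots kept apart, and filters of 6 and 11 arrays. Each array was also left out in turn, chosen after seeing the data. The fit was tested on simulated data with known changes.

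Nppb, Rcan1 and Fhl1 and the pathway and marker lists were chosen with earlier results of these data known. Named were the 3 markers, the list genes that passed or had the 3 smallest p among the rest in Dil minus WT, and the 5 genes most like each marker. Other list members given with values, such as Fhl2 or Nfatc1, were chosen for their known role after their values were seen.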

Additional observations from a re-analysis of the deposited data

Results flagged for a closer look

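Nppb in Hyp minus WT had a set far from the others. The 4 sets gave 1.14, 1.28, 1.30 and 0.11 in order of their number, and the gap between set 4 and the nearest other set was 0.866 of the whole range, above Dixon's 95% critical value for 4 values. Chance flags about 5% of such groups, and 12 were examined, the 3 genes in 3 comparisons each and the weight index of the 3 groups. Rcan1 in the same mouse Hyp4 lay at 0.50, inside the range of the other Hyp mice. Without set 4 the fitted difference of Nppb in Hyp minus WT was 1.33.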

How the results depend on the processing

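No alternative changed the sign of Nppb, Rcan1 or Fhl1 in Dil minus WT or Dil minus Hyp, or of Nppb and Rcan1 in Hyp minus WT. Fhl1 in Hyp minus WT, near 0 throughout, turned to -0.034 without set 2 and to -0.0022 with arrays scaled to the same spread. With the replicate block, which pairs the mice of a set, 6 features passed in Dil minus WT and 0 in Dil minus Hyp (1020 at an unadjusted p under 0.05 in limma), and these did not pass: Nppb (2.39) and Fhl1 (1.17) in Dil minus WT, Rcan1 (0.98) and Fhl1 (1.12) in Dil minus Hyp. The block changed no other call of the 3 genes. Direct arrays only left 7 and 0 features, with Fhl1 at 1.44 in Dil minus WT (adjusted p = 0.0680), and Rcan1 at 0.97 and Fhl1 at 1.10 in Dil minus Hyp (both 0.999). Scaled arrays left 68 features in Dil minus WT and Rcan1 at 0.78 in Dil minus Hyp. Without the array of WT1 and Hyp1 94 and 6 features passed and Fhl1 in Dil minus Hyp, at 1.15, did not (0.0924). With that column as deposited 33 passed in Dil minus Hyp, without a dye term 119 in Dil minus WT, and with ordinary least squares 52 in Dil minus Hyp.

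Leaving out each set gave 0 to 119 features in Dil minus WT and 0 to 15 in Dil minus Hyp, and leaving out each array 30 to 447 and 1 to 42. Over both kinds the values in Dil minus WT ran from 2.36 to 2.75 for Nppb, 1.43 to 1.64 for Rcan1 and 1.09 to 1.45 for Fhl1. In Dil minus Hyp they ran from 1.04 to 1.90, 0.85 to 1.15 and 0.94 to 1.38. In Hyp minus WT they ran from 0.78 to 1.33, 0.45 to 0.65 and -0.034 to 0.17. Over all 26 alternatives the adjusted p ran from 0.00184 to 0.216 for Nppb, 0.000359 to 0.177 for Rcan1 and 0.00564 to 0.238 for Fhl1 in Dil minus WT. In Dil minus Hyp it ran from 0.0204, 0.00917 and 0.0156 to 0.999 for each. The cause of these changes was not tested, beyond the fewer arrays in some fits. Each gene rests on 1 spot and 4 mice a group.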
